A study of Mus musculus with 6 samples.

Results

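The nuclear genome encodes all subunits of succinate dehydrogenase (complex II) and most subunits of complexes III, IV and V of oxidative phosphorylation, together with the factors that assemble them. Their transcripts were compared between cultured brown adipocytes with and without UCP1. Members were RefSeq transcripts chosen by gene symbol (Sdh, Uqcr, Uqcc, Cyc1, Cycs, Cox with a number, Atp5 and Atpif1). The symbols Cox4i1, Cox4i2, Cox6a1, Cox6a2, Cox7a1, Cox7a2, Cox7a2l, Cox8a and Cox8b were left out by the rule, so that the cytochrome c oxidase members are not complete. Of 22466 gene symbols with a RefSeq transcript in the table, 53 were members. They comprised 6 genes of complex II, 11 of complex III and cytochrome c, 18 of complex IV and 18 of complex V. For a symbol with more than 1 transcript the one of highest mean was kept, which reduced 59 transcripts to 53.

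The cells were primary brown adipocytes, differentiated in culture from precursors of the interscapular brown fat of male mice of the strain given in the labels as 129SvEvS1, 5 to 6 weeks old per the study's methods. There were 3 independent cultures of WT genotype (replicates 10, 11 and 12) and 3 of genotype UCP1(-/-), called Ucp1-KO (replicates 13, 14 and 15), on the same strain background. The methods give the same medium for both genotypes, with insulin, T3 and rosiglitazone, and call the sequenced cells fully differentiated. The knockout is a germline one that all cells of the mouse carry, so that cells were without UCP1 also as they differentiated. Levels are in RPKM, the reads of a transcript scaled to its length and to the mapped reads of the library.

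Complex II passes electrons from succinate to ubiquinone and is the only enzyme of the respiratory chain without a subunit encoded in mitochondria. Complex III transfers electrons from ubiquinol to cytochrome c, and complex IV from cytochrome c to oxygen, both while moving protons across the inner membrane. Complex V, the ATP synthase, lets protons flow back through its membrane part Fo, whose turning ring of c subunits drives ATP synthesis in the catalytic part F1. In brown fat, UCP1 lets protons return without ATP synthesis and releases the energy as heat. Brown adipocyte mitochondria are known for a high content of respiratory chain enzymes and a low content of ATP synthase.

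The recovered library totals lay between 14989604 and 17727653 reads. For a transcript of 1000 bases, 3 reads corresponded to 0.169 to 0.2001 RPKM, which takes into account counting error alone. Ucp1 itself was lower in every Ucp1-KO culture (307 to 409 RPKM) than in every WT culture (981 to 1775 RPKM). The altered allele is described as still giving a shortened RNA from which no UCP1 is made, and a value per transcript cannot tell this RNA from the intact one, so that the check rests on a lower level and not on absence. The log2 fold change was -1.78 (SE 0.24, limma unadjusted p = 1.57e-04, adjusted p = 0.868). The 10 adipocyte markers summed to 31484 to 33447 RPKM in WT against 32957 to 34544 RPKM in Ucp1-KO cells, most of it Fabp4. By the sign of the log2 fold change 8 of the 10 were higher in Ucp1-KO cells, and the largest difference was that of Cfd (-0.72, limma unadjusted p = 0.0268, adjusted p = 0.868). Markers of other cells were lower and uneven. The 10 stromal markers summed to 938 to 2116 RPKM in WT against 842 to 1333 RPKM in Ucp1-KO cells, with the highest value in WT replicate 11 and the lowest in Ucp1-KO replicate 15. The 6 macrophage markers found in the table reached 825 RPKM in Ucp1-KO replicate 14, against 41.8 to 179 RPKM in the other cultures. The 6 endothelial markers summed to 2.91 to 34.8 RPKM in WT against 5.84 to 16.3 RPKM in Ucp1-KO cells, and the 8 skeletal muscle markers to 4.17 to 9.12 and 3.53 to 19.9 RPKM. Of the muscle markers, Ckm, Myh4, Myod1 and Myog stayed under a mean of 0.5 RPKM. All 9 stromal markers that were tested had a negative log2 fold change, from -0.85 for Dcn to -0.08 for Ly6a, whose mean RPKM was higher in Ucp1-KO cells, and the part of other cells in the values of the members was not tested.

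No member was called different between Ucp1-KO and WT cells. Of the 53 members, 49 averaged 0.5 RPKM or more and were tested with limma on log2(RPKM + 1). Adjusted over all 16865 RefSeq transcripts tested, 0 members had a p under 0.05, where the background was 0% of all transcripts, and limma-voom on the recovered reads also gave 0. At an unadjusted p under 0.05 there were 0 of 49 members, against 5.54% of all transcripts tested, and again 0 by limma-voom. The smallest unadjusted p among the members was 0.102, for Atp5h, and its limma adjusted p was 0.871. The 95% intervals on the log2 scale ran, for example, from -0.21 to 0.20 for Sdhc and from -0.13 to 0.94 for Cox7c. The p-values measure the spread between cultures. In bulk RNA, fewer adipocytes and less RNA per adipocyte cannot be told apart.

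By the sign of the log2 fold change alone, 35 of the 49 members were higher in Ucp1-KO cells, or 71.4%, where 49.6% of all transcripts tested were higher. The median log2 fold change was 0.08 over the members and -0.0016 over all transcripts tested. It was 0.01 for complex II (3 of 6 higher), 0.09 for complex III and cytochrome c (9 of 11), 0.12 for complex IV (13 of 16) and 0.03 for complex V (10 of 16). These medians depended on the cultures. With 1 culture left out they ranged from -0.0015 to 0.06 for complex II (leaving out Ucp1-KO replicate 14 or 13, respectively) and from 0.04 (without WT replicate 11, or Ucp1-KO replicate 15) to 0.12 (without WT replicate 10) for complex III and cytochrome c. For complex IV they ranged from 0.07 (without Ucp1-KO replicate 15) to 0.16 (without WT replicate 10), and for complex V from -0.04 to 0.09 (leaving out Ucp1-KO replicate 15 or 13, respectively). Without Ucp1-KO replicate 15, 27 of 49 members were higher and the median was 0.03, while 48.4% of all transcripts were higher. Without Ucp1-KO replicate 13, 40 of 49 were higher, while 54.1% of all transcripts were.

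In 8 members the genotypes did not overlap, 4 of them with all Ucp1-KO cultures above and 4 with all below the WT cultures. The background of non-overlapping transcripts was 11.2%, made up of 6.04% with Ucp1-KO higher and 5.15% with Ucp1-KO lower. Higher were Atp5h, Atp5j2, Uqcc and Cox16, and lower were Atp5g3, Atp5j, Atp5d and Sdha.

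**Figure D1:**
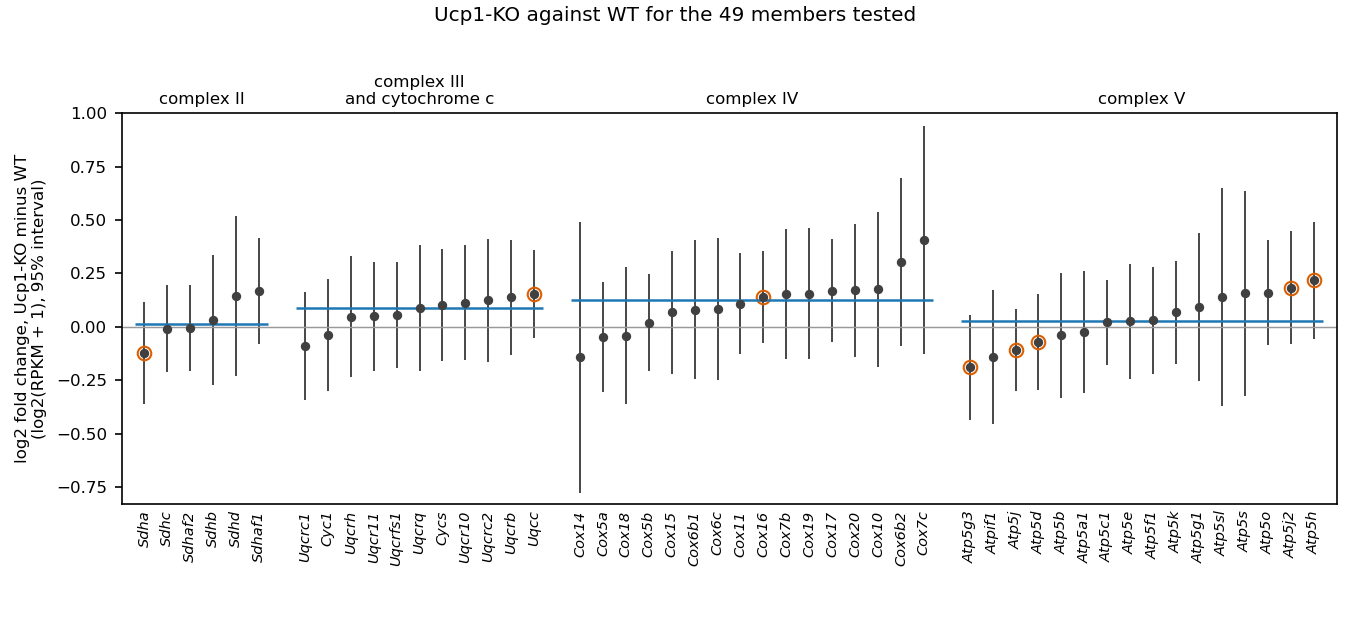
Log2 fold change of Ucp1-KO against WT (y axis, on log2(RPKM + 1)) for the 49 members tested, ordered within each complex, with 95% intervals of limma. Blue lines are the medians of the complexes and orange rings mark the 8 members whose genotypes did not overlap. Every interval includes 0.

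The 4 subunits of complex II were abundant, and Sdha was the only one whose genotypes did not overlap. Sdha encodes the flavoprotein that oxidises succinate and Sdhb the iron-sulfur protein that takes up its electrons. Sdhc and Sdhd anchor them in the membrane and bind ubiquinone. They lay between 278 RPKM for Sdhc and 574 RPKM for Sdhd, a ratio of 2.07. Sdha (NM_023281, chromosome 13, 74322255 to 74350240 on GRCm38) had 492, 450.0 and 453 RPKM in WT replicates 10, 11 and 12, against 397, 436 and 449 RPKM in Ucp1-KO replicates 13, 14 and 15. All Ucp1-KO cultures thus lay below all WT cultures, although the highest of the former and the lowest of the latter were almost equal. The means were 465 ± 23.2 and 428 ± 26.9 RPKM (SD, n = 3 each), with a log2 fold change of -0.12 (SE 0.10, limma unadjusted p = 0.265, adjusted p = 0.889).

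The other subunits of complex II overlapped between genotypes. Sdhb (chromosome 4, 140961271 to 140979198) had 323, 345 and 341 RPKM in WT against 292, 358 and 389 RPKM in Ucp1-KO cells. Its lowest and its highest culture were both Ucp1-KO. Sdhc (chromosome 1, 171129157 to 171150640) had 289, 276 and 269.7 RPKM in WT against 268, 279 and 283 RPKM in Ucp1-KO cells, the narrowest spread of the 4 subunits. Sdhd (chromosome 9, 50596340 to 50603849) had 676, 479.7 and 491 RPKM in WT against 636, 554 and 609 RPKM in Ucp1-KO cells. Here WT replicate 10 stood above all other cultures. The assembly factors were expressed at a much lower level. Sdhaf1, which protects the iron-sulfur protein during cluster insertion, had 32.3 ± 1.69 RPKM in WT against 36.5 ± 3.92 RPKM in Ucp1-KO cells (SD, n = 3 each) and a log2 fold change of 0.17 (SE 0.10, limma unadjusted p = 0.149, adjusted p = 0.876). Sdhaf2, which helps attach the flavin to Sdha, had 20.7 ± 1.035 and 20.6 ± 0.974 RPKM (SD, n = 3 each).

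Complex III subunits reached higher levels than complex II subunits, with a median of 577 RPKM against 394 RPKM. The most abundant was Uqcrq, a small subunit next to cytochrome b, with 1030.2, 933 and 926 RPKM in WT against 973, 954 and 1153 RPKM in Ucp1-KO cells. The highest value came from Ucp1-KO replicate 15, and the remaining cultures of both genotypes were mixed. Uqcr10, another small membrane subunit, had 632 ± 25.2 RPKM in WT against 685 ± 69.8 RPKM in Ucp1-KO cells (SD, n = 3 each). Uqcrfs1, the Rieske iron-sulfur protein that passes electrons from ubiquinol to cytochrome c1, had 604 ± 41.6 and 628 ± 29.6 RPKM (SD, n = 3 each). Cyc1, cytochrome c1 itself (chromosome 15, 76343513 to 76346260), had 602, 558 and 589.7 RPKM in WT against 511, 583 and 615 RPKM in Ucp1-KO cells. As for Sdhb, the Ucp1-KO cultures spanned the whole WT range, with replicate 13 lowest and replicate 15 highest. The log2 fold change of Cyc1 was -0.04 with a 95% interval of -0.30 to 0.23.

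The core proteins Uqcrc1 and Uqcrc2, the hinge protein Uqcrh and the small subunit Uqcr11 averaged 361 to 599.6 RPKM over the 6 cultures. Their log2 fold changes lay between -0.09 for Uqcrc1 and 0.13 for Uqcrc2, and the genotypes overlapped in each.

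Uqcrb, which binds near the ubiquinone site, was the least abundant subunit of complex III. It had 164, 169 and 172 RPKM in WT against 162, 188 and 208 RPKM in Ucp1-KO cells, a log2 fold change of 0.14 (SE 0.11, limma unadjusted p = 0.261). Uqcc, known today as Uqcc1, is an assembly factor needed for making cytochrome b. It was represented by the RefSeq transcript NR_024487, annotated as non-coding (chromosome 2, 155846886 to 155930310). Its levels were 45.8, 41.1 and 43.4 RPKM in WT against 46.6, 51.4 and 47.2 RPKM in Ucp1-KO cells. The 2 genotypes did not overlap, and the log2 fold change was 0.15 (SE 0.09, limma unadjusted p = 0.1203, adjusted p = 0.874). Cycs, the soluble electron carrier cytochrome c, was listed at only 12.9, 10.1 and 11.2 RPKM in WT against 13.04, 11.8 and 12.02 RPKM in Ucp1-KO cells (chromosome 6, 50562563 to 50566569). It was lower than every subunit of complex III.

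In cytochrome c oxidase (complex IV), the members spanned a wide range of levels. Cox6b1, a small subunit facing the intermembrane space where cytochrome c docks, was the most abundant, with 1386, 1399 and 1425 RPKM in WT against 1347, 1396 and 1738 RPKM in Ucp1-KO cells. Ucp1-KO replicates 13 and 14 lay at the lower edge of the WT cultures or below them, and replicate 15 far above. Without replicate 15, the log2 fold change of Cox6b1 turned from 0.08 to -0.03. Cox6c showed a similar order, with 459, 444 and 457 RPKM in WT against 422, 449.8 and 584 RPKM in Ucp1-KO cells, and turned from 0.08 to -0.06. Cox5a, a subunit on the matrix side, had 555 ± 32.8 RPKM in WT against 537 ± 41.9 RPKM in Ucp1-KO cells (SD, n = 3 each), a log2 fold change of -0.05 (SE 0.11). The subunits Cox7b and Cox5b averaged 329.6 and 181 RPKM, with log2 fold changes of 0.15 and 0.02.

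Cox6b2 is the testis form of Cox6b1 and was detected at a far lower level. It had 14.7, 12.997 and 17.0 RPKM in WT against 14.8, 19.6 and 22.0 RPKM in Ucp1-KO cells, resting on 100 to 156 reads per culture. Of all complex IV members it had the lowest unadjusted p, with a log2 fold change of 0.31 (SE 0.17, limma unadjusted p = 0.109, adjusted p = 0.871), while the genotypes overlapped. Without Ucp1-KO replicate 15 its log2 fold change was 0.19, and without replicate 13 it was 0.46. Cox7b2 and Cox8c, likewise known as testis forms, were at the floor. Cox7b2 had 1 read in Ucp1-KO replicate 13 and 0 in the other cultures, and Cox8c was listed at 0 in all 6. Cox7c, a subunit found in all tissues, was close to the minimum as well, with 3.001, 1.87 and 1.13 RPKM in WT against 2.62, 2.97 and 2.97 RPKM in Ucp1-KO cells. These values stood for 9 to 23 reads, and the log2 fold change of 0.41 had an SE of 0.22 (limma unadjusted p = 0.113, adjusted p = 0.871). It was 0.185 without WT replicate 12 and 0.64 without WT replicate 10.

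The assembly factors of complex IV insert its copper, haem and core subunits. The copper chaperone Cox17 was by far the most abundant of the 9, with 191 ± 6.26 RPKM in WT against 215 ± 20.9 RPKM in Ucp1-KO cells (SD, n = 3 each). Cox14, Cox19, Cox20, Cox18, Cox10, Cox11 and Cox15 averaged 93.2 to 14.7 RPKM, with log2 fold changes between -0.14 for Cox14 and 0.18 for Cox10. The lowest was Cox16, which takes part in the assembly of the core subunits. Cox16 (chromosome 12, 81358852 to 81485137) had 10.9, 10.5 and 9.75 RPKM in WT against 11.9, 10.9 and 11.8 RPKM in Ucp1-KO cells, without overlap. The log2 fold change was 0.14 (SE 0.09, limma unadjusted p = 0.164, adjusted p = 0.876). Of the 9 factors, 7 had a positive log2 fold change, at a median log2 fold change of 0.14, and 0 passed the test.

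In complex V, catalytic subunits of F1 led in abundance. Atp5b, the β subunit that carries the catalytic sites, was the most abundant of all members, with 2159, 2032 and 2054 RPKM in WT against 1861, 2109.7 and 2112 RPKM in Ucp1-KO cells. Ucp1-KO replicate 13 was the lowest culture and the others were mixed (log2 fold change -0.04, 95% interval -0.33 to 0.25). Atp5a1, the α subunit, had 1011 ± 115 RPKM in WT against 990.4 ± 10.1 RPKM in Ucp1-KO cells (SD, n = 3 each). The δ subunit Atp5d of the central stalk (chromosome 10, 80138698 to 80145828) had 669.9, 628 and 622 RPKM in WT against 609.5, 599 and 621 RPKM in Ucp1-KO cells. The nearest cultures of the 2 genotypes were almost equal, and the log2 fold change was -0.07 (SE 0.09, limma adjusted p = 0.926). The γ and ε subunits Atp5c1 and Atp5e averaged 265 and 305 RPKM, with log2 fold changes of 0.02 and 0.03. Over the 5 F1 subunits the median log2 fold change was -0.02.

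Among the members of complex V, the smallest unadjusted p were those of Atp5h and Atp5g3 of the outer stalk and Fo. Atp5h, the d subunit of the outer stalk (chromosome 11, 115415691 to 115419919), had 155, 157 and 154 RPKM in WT against 157, 182 and 206 RPKM in Ucp1-KO cells. The WT cultures were almost identical, the Ucp1-KO cultures ranged upwards from the same level, and the log2 fold change was 0.22 (SE 0.12, limma unadjusted p = 0.102, adjusted p = 0.871). It was 0.12 without Ucp1-KO replicate 15 and 0.32 without replicate 13. Atp5j2, the f subunit (chromosome 5, 145183704 to 145191541), had 378, 369 and 344 RPKM in WT against 389, 389 and 466 RPKM in Ucp1-KO cells (log2 fold change 0.18, SE 0.11, limma adjusted p = 0.876). Here too the largest step was that to Ucp1-KO replicate 15, without which the log2 fold change was 0.097. Atp5j, coupling factor 6 of the outer stalk (chromosome 16, 84827871 to 84835857), went the other way in mean. It had 123, 124 and 119.6 RPKM in WT against 118, 109 and 113 RPKM in Ucp1-KO cells, a log2 fold change of -0.11 (SE 0.08, limma unadjusted p = 0.223, adjusted p = 0.878). The inhibitor Atpif1, which blocks ATP hydrolysis by the reversed enzyme, had 48.0, 67.8 and 59.5 RPKM in WT against 52.7, 53.5 and 50.9 RPKM in Ucp1-KO cells. Its Ucp1-KO cultures lay within the WT range, and the log2 fold change was -0.14 (SE 0.13, limma adjusted p = 0.893). It was -0.03 without WT replicate 11 and -0.27 without WT replicate 10.

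The genotypes overlapped in 5 further members named after complex V. Atp5o, which joins the outer stalk to F1, averaged 487 RPKM (log2 fold change 0.16), the e subunit Atp5k 300.4 RPKM (0.07) and the b subunit Atp5f1 187 RPKM (0.03). Atp5s and Atp5sl, known today as Dmac2l and Dmac2, are no longer counted among its subunits. They were at 9.95 and 15.1 RPKM, with log2 fold changes of 0.16 and 0.14.

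The c subunit of the Fo ring is encoded by 3 genes, Atp5g1, Atp5g2 and Atp5g3, which make the same mature protein with different import sequences. In brown fat, Atp5g1 is known as the gene whose expression limits the content of ATP synthase. Of their RefSeq transcripts, that of Atp5g3 had by far the highest level. Atp5g3 (chromosome 2, 73908447 to 73912464) had 297, 359.8 and 328 RPKM in WT against 297, 286 and 279 RPKM in Ucp1-KO cells. All Ucp1-KO cultures lay below all WT cultures, with WT replicate 10 and Ucp1-KO replicate 13 almost equal, and the log2 fold change was -0.19 (SE 0.10, limma unadjusted p = 0.111, adjusted p = 0.871). Atp5g1 (chromosome 11, 96072793 to 96075694) was listed at 1.84, 2.85 and 2.05 RPKM in WT against 2.17, 2.62 and 2.51 RPKM in Ucp1-KO cells, or 25 to 38 reads. Atp5g2 (chromosome 15, 102662868 to 102671047) was listed at 0 in all 6 cultures. Atp5g1 and Atp5g2 share much of their sequence with copies elsewhere in the genome, and the part of this in their low values was not tested. The last 75 codons of the 3 genes encode the same residues, with 0 differences in any pair. Their bases differ at 34 (Atp5g1 and Atp5g2), 45 (Atp5g1 and Atp5g3) and 48 (Atp5g2 and Atp5g3) of 225 positions. The last 60 coding bases from GENCODE M21 (GRCm38) are given to show this, with the 18 positions that are not the same in all 3 genes in capitals.
Atp5g1: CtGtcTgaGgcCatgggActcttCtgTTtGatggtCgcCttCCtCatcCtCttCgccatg
Atp5g2: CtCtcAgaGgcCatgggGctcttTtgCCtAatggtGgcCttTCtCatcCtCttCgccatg
Atp5g3: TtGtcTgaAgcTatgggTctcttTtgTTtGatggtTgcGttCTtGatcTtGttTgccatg

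**Figure D2:**
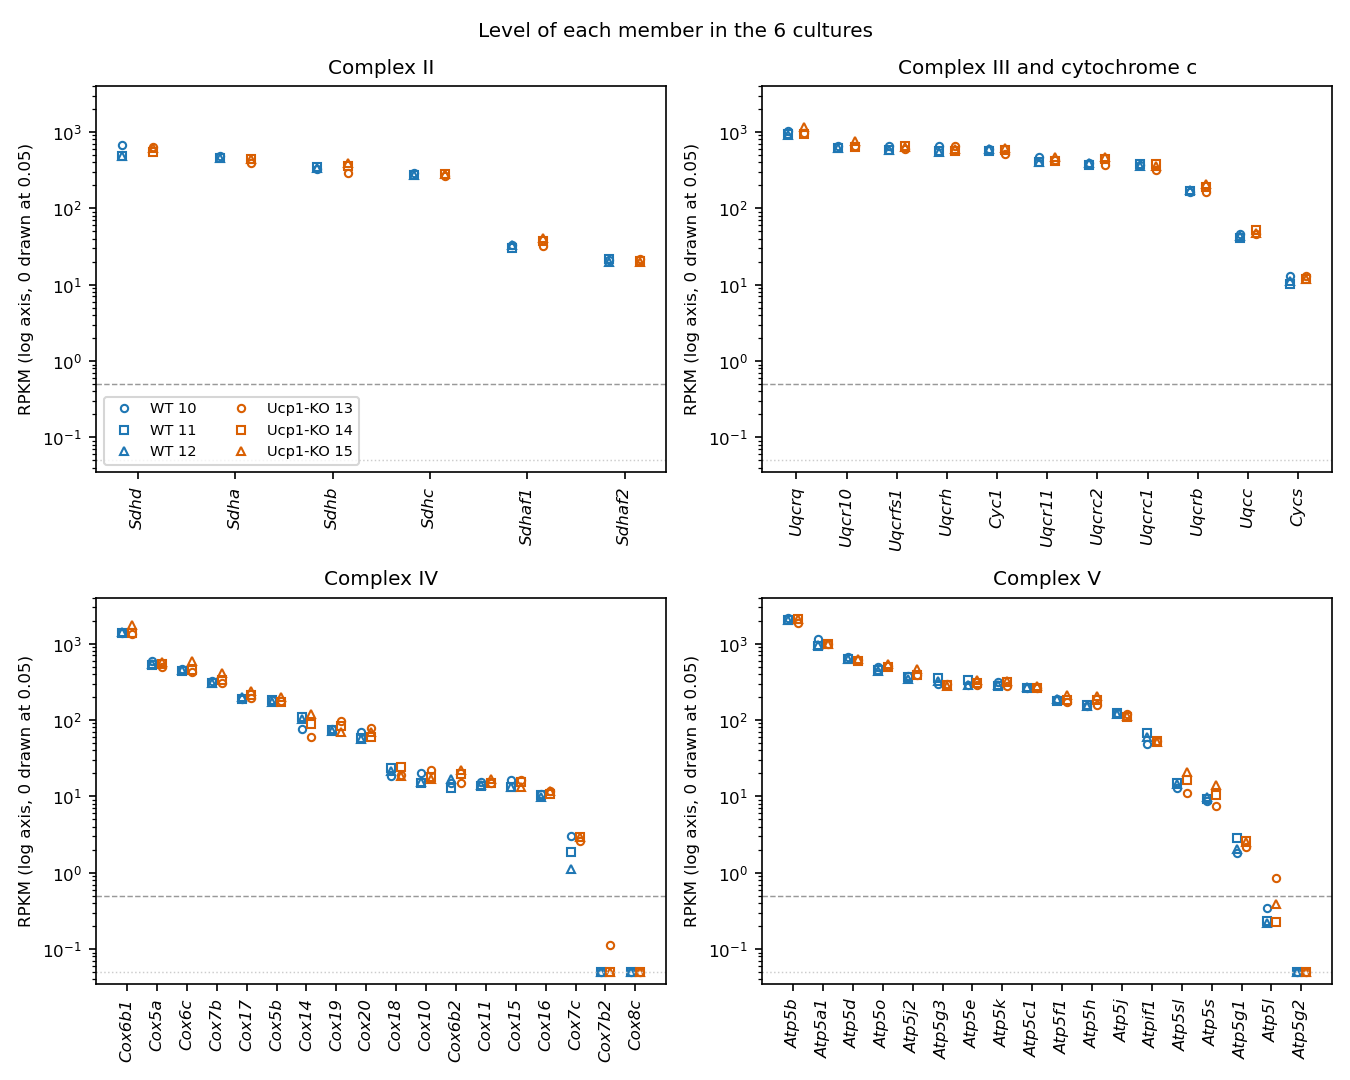
RPKM (log axis, 0 drawn at 0.05) of all 53 members in the 6 cultures, ordered by mean within each complex. Blue symbols are WT cultures, orange symbols Ucp1-KO cultures, and the dashed line is the minimum mean of 0.5 RPKM for testing. The cultures of both genotypes lie close together for most members above 10 RPKM and further apart for Cox7c and Atp5l, and the means of Atp5g2, Atp5l, Cox7b2 and Cox8c are under the line.

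Among the members, the order of levels was nearly the same in every culture. Spearman's rho over the 49 members tested was between 0.987 and 0.997 for all pairs of cultures, a description over genes, which are not independent replicates. Subunits and cytochrome c (38 genes) had a median of 335.5 RPKM and the 12 assembly factors a median of 27.6 RPKM, while the median of all transcripts tested was 7.39 RPKM. Together the 53 transcripts took up 1.72% to 1.92% of the reads of each culture. The share was 1.81% ± 0.0854 in WT and 1.82% ± 0.0992 in Ucp1-KO cells (SD, n = 3 each). Complex V made up the largest part, 0.877% ± 0.0432 and 0.866% ± 0.0351 of all reads, and complex IV the smallest, 0.218% ± 0.0038 and 0.230% ± 0.0247 (SD, n = 3 each). This order does not compare whole complexes, since the rule left out part of the complex IV genes.

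A group of widely expressed subunits was listed at very low levels in cells full of mitochondria. These were Cycs, Cox7c, Atp5g1, Atp5l and Atp5g2, which with the testis forms Cox6b2, Cox7b2 and Cox8c were the only 8 of the 38 genes under 20 RPKM. Atp5l, the g subunit of Fo (chromosome 9, 44913248 to 44920742), had 2 to 7 reads per culture, or 0.220 to 0.845 RPKM, and was not tested. The study's methods state that uniquely identified reads were assigned to transcripts. For each member, all stretches of 50 bases, the length of a read, were therefore compared with the transcripts of other genes in GENCODE M21. Genes that overlap the member's own gene were left out of this comparison. Of the stretches of Atp5g2, 87.4% were identical in another gene, as were 68.5% of Atp5l, 56.2% of Atp5g1, 48.2% of Cox7c and 28.5% of Cycs. Of the 4 subunits of complex II, each without such stretches, the lowest had 278 RPKM.

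The other genes were mostly processed pseudogenes, intronless copies of a messenger RNA inserted elsewhere in the genome. Atp5g2 shared 596 stretches with Gm10175 (chromosome 7, 23946646 to 23947290, minus strand) and Atp5l shared 260 with Gm10221 (chromosome 5, 24581554 to 24581862, minus strand). Atp5g1 shared 335 with Gm10039 (chromosome 11, 100361716 to 100362126, minus strand), Cox7c 153 with Gm10012 (chromosome 17, 25901856 to 25902227, plus strand), and Cycs 847 with Gm10053 (chromosome 19, 24875686 to 24876631, plus strand), which GENCODE lists as protein-coding. The first 60 coding bases of 3 members and the matching bases of the copies, from GENCODE M21, show how close they are. In each of the 3 pairs all 60 bases are the same, so no base is in capitals.
Atp5g2: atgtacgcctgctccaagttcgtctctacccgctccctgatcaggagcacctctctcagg
Gm10175: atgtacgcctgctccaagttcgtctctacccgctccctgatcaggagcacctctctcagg
Atp5l: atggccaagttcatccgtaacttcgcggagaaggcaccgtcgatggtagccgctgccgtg
Gm10221: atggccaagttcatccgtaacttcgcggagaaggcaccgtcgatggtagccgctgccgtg
Cox7c: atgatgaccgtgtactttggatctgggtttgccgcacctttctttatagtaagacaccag
Gm10012: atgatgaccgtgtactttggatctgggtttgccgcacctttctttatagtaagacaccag

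Levels differed among members with similar shares. Atp5h shared 50.5% and Uqcrb 43.2% of their stretches, yet had mean levels of 169 and 177 RPKM. Cox6b2, Cox7b2 and Cox8c shared none and were low. Over the 38 genes, Spearman's rho between mean RPKM and the share of identical stretches was -0.464, and -0.3 where up to 2 mismatches were allowed, a description over genes of differing length. Whether reads of the low members were left out as not unique was not tested, since the reads themselves were not analysed here. One further value bears on Atp5g1. The table holds an Ensembl transcript under the name Atp5g1 (ENSMUST00000081241) that GENCODE M21 assigns to the pseudogene Gm10039, with 83.5 ± 9.65 RPKM in WT against 76.2 ± 11.1 RPKM in Ucp1-KO cells (SD, n = 3 each). An Ensembl transcript named Cycs that belongs to Gm10053 had 14.2 ± 1.37 and 14.5 ± 2.34 RPKM (SD, n = 3 each). The Ensembl transcripts named Atp5g2 that belong to Gm10175 and Gm10231 were listed at 0 in all 6 cultures, and that named Cox7c of the pseudogene Gm12338 had at most 0.347 RPKM and was at 0 in WT replicates 10 and 12 and Ucp1-KO replicate 14. The levels of these 5 members are uncertain. Of the 16 members tested with at least 20% of their stretches shared at up to 2 mismatches, 15 were higher in Ucp1-KO cells, against 20 of the other 33, and the part of shared sequence in the comparison of the genotypes was not tested.

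**Figure D3:**
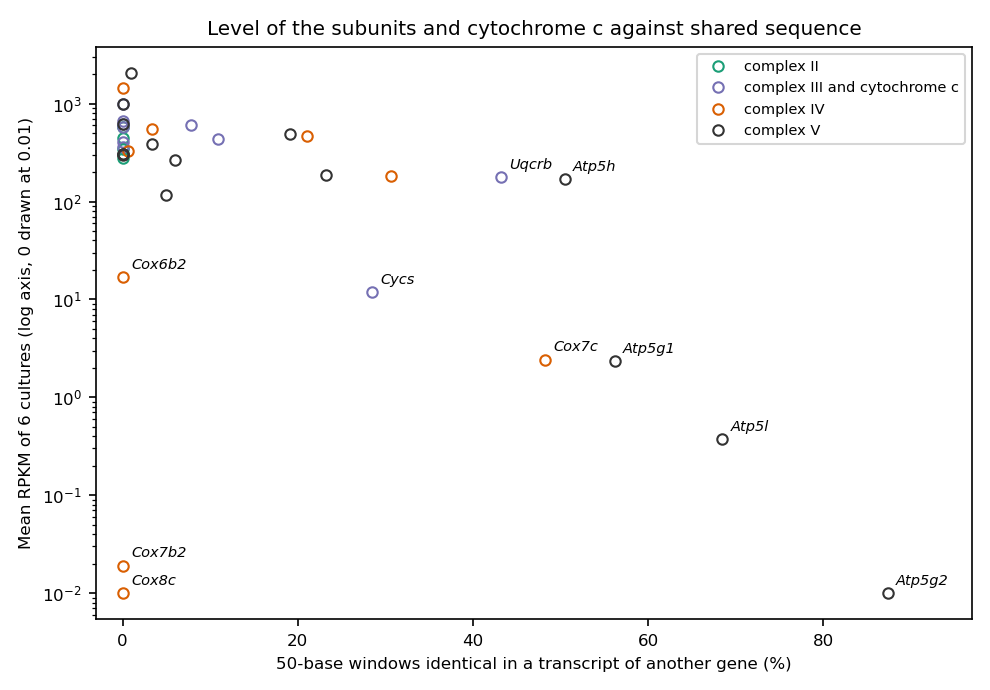
Mean RPKM of the 6 cultures (log axis, 0 drawn at 0.01) against the percentage of 50-base stretches that are identical in a transcript of another gene, for the 38 subunits and cytochrome c, coloured by complex. Atp5g2, Atp5l, Atp5g1, Cox7c and Cycs lie low at 28.5% to 87.4%, Atp5h and Uqcrb stay above 100 RPKM at similar shares, and Cox6b2, Cox7b2 and Cox8c are low at 0%.

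Single cultures differed in how often they were the highest or the lowest. Ucp1-KO replicate 15 was the highest of the 6 cultures in 24 of 49 members, against 23.6% of all transcripts tested. WT replicate 12 was the highest in 0 members, against 10.4% of all transcripts, and WT replicate 10 in 10 (20.4%), against 6.3%. The lowest culture was Ucp1-KO replicate 13 in 15 members (30.6%, against 24.5% of all transcripts), WT replicate 11 in 13 (26.5%, against 2188 of the 16865 transcripts) and WT replicate 12 in 11 (22.4%, against 8.6%). Deviation from the mean of the 6 cultures on the log2(RPKM + 1) scale had a median over the members of 0.0007, -0.07 and -0.06 in WT replicates 10, 11 and 12, and of -0.05, 0.0050 and 0.11 in Ucp1-KO replicates 13, 14 and 15. Over all transcripts tested the same medians were -0.06, 0.05, 0.02, -0.04, 0.025 and -0.0045. Over all members the genotypes overlapped, since WT replicate 10 lay above Ucp1-KO replicate 13. Over the 12 assembly factors they did not, with medians of -0.0042, -0.12 and -0.08 in the WT cultures and of 0.04, 0.045 and 0.06 in the Ucp1-KO cultures. The same held for the 9 of these 12 that belong to complex IV, with -0.0082, -0.12 and -0.12 against 0.11, 0.02 and 0.08. They are part of the same genes and no separate observation, and 0 of them passed the test. The genotypes overlapped over 21 other assembly or associated factors that are not members, where WT replicate 10 (0.0235) lay above all Ucp1-KO cultures (0.0133 to 0.0211).

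The deviation of Ucp1-KO replicate 15 was uneven among the groups of members. It was 0.48 for Atp5s and Atp5sl, 0.27 for the 7 subunits of complex IV that were tested, 0.14 for the 8 Fo and stalk subunits and 0.04 for the 5 F1 subunits. The median length of Atp5s and Atp5sl was 1937 bases. The 12 assembly factors deviated by 0.06, and the 9 nuclear regulators, with a median of 3656 bases, by 0.19. Lengths behind the RPKM values, recovered with the reads, divided the members into 17 under 600 bases and 32 of at least 600 bases. In the short members the median deviation of replicate 15 was 0.22 and in the long ones 0.06. The short members had a median log2 fold change of 0.09, with 16 of 17 higher in Ucp1-KO cells (all but Atpif1), against 0.04 and 19 of 32 in the long ones. Among all transcripts tested, the 286 under 600 bases had a median deviation of 0.11 in replicate 15, and 186 of them were higher in Ucp1-KO cells. Among the 65 of these with at least 100 RPKM, nearer to the members in abundance, the median deviation was 0.16 and 50 were higher. The 286 include the 17 short members, and the 65 include the abundant ones of these. Neither group is therefore a background free of members. Replicate 15 had the smallest library total and the lowest stromal marker sum, 842 RPKM, and the part of length, depth and other cells in these differences was not tested. Without both WT replicate 11 and Ucp1-KO replicate 15, 26 of 49 members were higher in Ucp1-KO cells and the median log2 fold change was 0.01. Over all transcripts 54.1% were then higher, at a median of 0.0147. Besides the ends of the stromal marker sums, these cultures were the lowest WT and highest Ucp1-KO culture in the members' own median deviation. A smaller difference therefore followed from the choice. Without WT replicate 11 alone 37 of 49 members were higher, and without Ucp1-KO replicate 15 alone 27.

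**Figure D4:**
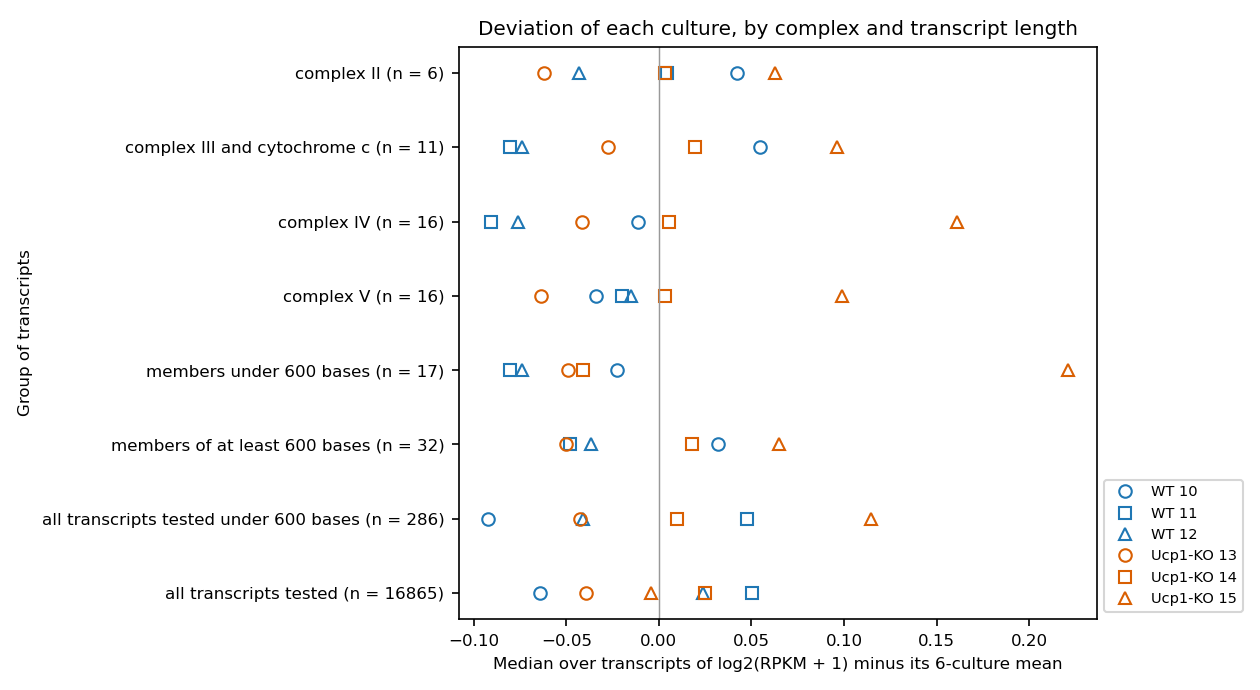
Median deviation of each culture from the mean of the 6 cultures (x axis, log2(RPKM + 1) scale) for the members of each complex, for short and long members, and for all transcripts tested. Blue symbols are WT and orange symbols Ucp1-KO cultures. Ucp1-KO replicate 15 stands furthest to the right for members under 600 bases (0.22) and lies near 0 for all transcripts.

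Genes with related tasks that are not members were compared in the same way. The first were 21 other assembly or associated factors of these complexes. Examples are Surf1, Sco1 and Taco1 for complex IV, Bcs1l for complex III and Atpaf1 for complex V. Of the 21, 15 were higher and 6 lower in Ucp1-KO cells and 0 passed the test. The lowest unadjusted p was that of Cmc2, a factor of complex IV assembly. Cmc2 had 27.2, 22.3 and 24.0 RPKM in WT against 29.9, 27.1 and 31.0 RPKM in Ucp1-KO cells, a log2 fold change of 0.25 (SE 0.10, limma unadjusted p = 0.0475, adjusted p = 0.868). Its genotypes overlapped narrowly. Of 9 nuclear regulators of respiratory genes, among them Nrf1, Gabpa, Yy1, Esrra and Ppargc1a, 6 were higher and 3 lower and 0 passed. Gabpb2, which encodes a subunit that joins Gabpa, had the lowest unadjusted p, with 5.66, 4.85 and 5.41 RPKM in WT against 6.42, 6.32 and 7.17 RPKM in Ucp1-KO cells. All Ucp1-KO cultures lay above all WT cultures, and the log2 fold change was 0.28 (SE 0.10, limma unadjusted p = 0.0309, adjusted p = 0.868).

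Promoter motifs, which the choice by symbol did not use, were searched in the members. The regulators NRF1, GABPA (also called NRF2), YY1 and the oestrogen-related receptors are known to act on respiratory chain genes. Promoters of 43 of the 53 members were found in the RefSeq table for GRCm38.p6, each from 250 bases before to 50 bases after a start of the gene, and were searched on both strands. A gene with more than 1 start was counted if any of them held the letters. The letters CCGGAAG of GABPA were present in 17 of 43 members (39.5%) and in 9.93% of the 27025 genes of the table. The letters GCATGCGC of NRF1 were present in 7 members (16.3%) against 3.05%, AAGATGGC of YY1 in 6 against 3.19%, and TNAAGGTCA of the oestrogen-related receptors in 2 (4.7%) against 1.43%. The last letters of the GABPA motif are the first of the YY1 motif, so that a pair can overlap, but in the members that hold both they lay apart. At least 1 of the 4 was found in 24 members (55.8%) and in 16.18% of all genes. By complex, GABPA letters were found in 4 of 5 members of complex II, 2 of 7 of complex III and cytochrome c, 6 of 14 of complex IV and 5 of 17 of complex V. NRF1 letters were found in 0 of the 14 members of complex IV and in 3 of 7 of complex III and cytochrome c, one of which is Cycs. The genes of the table were taken whatever their level in these cells. A match describes letters in this window, not binding.

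Stretches of 6 of these promoters are shown to give examples of each motif and of motifs that stand together, written in the direction of the gene with the motif in capitals. A motif on the opposite strand appears as its reverse complement, which holds for the GABPA letters in Sdhd and Cox20 (CTTCCGG) and the receptor letters in Atp5g3. The capitals are GABPA letters in Sdhd (chr9:50603869-50603915, minus strand) and Uqcr11 (chr10:80406861-80406907, minus strand), and GABPA and YY1 letters in Cox20 (chr1:178319030-178319105, plus strand) and Atp5j (chr16:84835011-84835084, minus strand). They are NRF1 letters in Sdhb (chr4:140961197-140961244, plus strand) and the receptor letters in Atp5g3 (chr2:73911350-73911398, minus strand). All coordinates are on GRCm38.p6, and in Cox20, Atp5j and Atp5g3 the start used lies inside the span of the gene.
Sdhd: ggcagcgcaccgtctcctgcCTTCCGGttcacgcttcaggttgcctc
Uqcr11: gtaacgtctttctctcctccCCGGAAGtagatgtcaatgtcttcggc
Cox20: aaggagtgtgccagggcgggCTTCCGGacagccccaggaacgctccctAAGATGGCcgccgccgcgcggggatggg
Atp5j: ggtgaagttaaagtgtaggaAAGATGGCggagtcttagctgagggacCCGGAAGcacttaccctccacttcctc
Sdhb: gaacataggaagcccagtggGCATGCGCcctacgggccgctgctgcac
Atp5g3: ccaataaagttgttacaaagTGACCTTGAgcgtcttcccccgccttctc

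**Figure D5:**
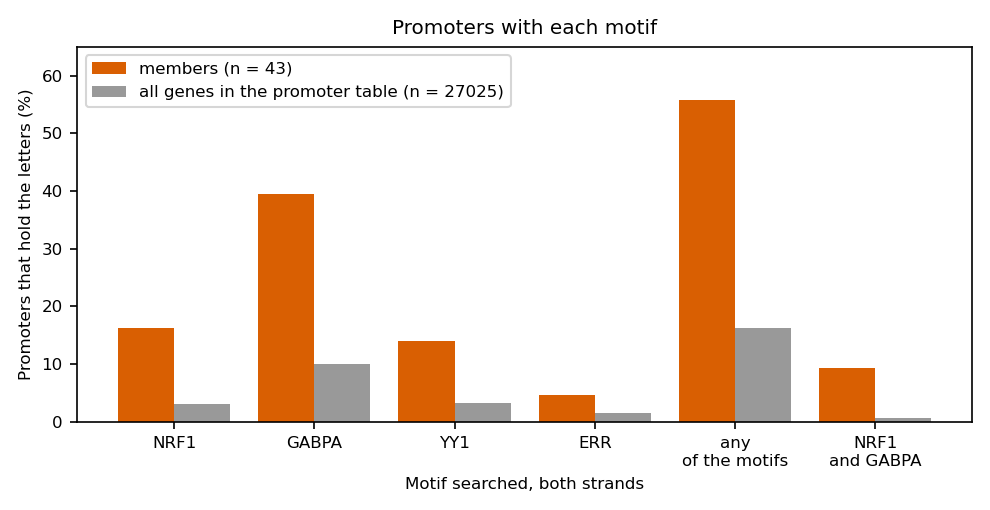
Percentage of promoters (y axis) that hold the letters of each motif on either strand, for the 43 members found in the promoter table (orange) and for all 27025 genes of the table (grey), with ERR for the oestrogen-related receptors. GABPA letters are found in 39.5% of the members and 9.93% of all genes, and at least 1 motif in 55.8% and 16.18%.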

How the data were processed

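The deposited values were RPKM per transcript. Per the study's methods, the authors prepared libraries with the TruSeq RNA kit v2, sequenced single 50-base reads on a HiSeq instrument, mapped them to mouse NCBI build 38 and assigned reads with a unique position to known transcripts. The table holds 1 column for each of the 6 cultures and none of the authors' comparisons. RefSeq transcripts averaging 0.5 RPKM or more were tested in R 4.3.3 with limma 3.58.1 (intensity trend) on log2(RPKM + 1), as Ucp1-KO minus WT, with Benjamini-Hochberg adjustment over all 16865 transcripts. Fold changes are on this scale, which understates those of low transcripts. The study's methods name a count test, which could not be the main test on RPKM. RPKM of all 16865 tested transcripts (100%) came out as whole reads (tolerance 0.03) at some transcript length, which equalled the GENCODE length of the matched transcript in 2679 of 16529. The read numbers and the division at 600 bases rest on these recovered lengths. The test of limma-voom on those reads gave 0 calls. Steps were tested on simulated data.

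The members and gene lists were chosen with earlier results of these data known. Named in each complex were the 3 most abundant members, the 2 of lowest unadjusted p, the lowest tested member, members without overlap of genotypes, and set paralogs and single genes. The other members are described by their mean and fold change only, outside this rule and with their values seen. Shared stretches were counted in GENCODE M21 transcripts, where the matched transcript of 13 members differed in length by more than 20% from the recovered length. For 9 of them a nearer one was used, and for Cox11, Sdhaf1, Cyc1 and Cox6b1 the matched one was kept. Coordinates are those of GRCm38. Python 3.11.15, numpy 2.4.6, pandas 2.3.3 and scipy 1.17.1 were used. Alternatives were the constant, the minimum, the transcripts fitted, the scaling, limma-voom and each culture left out. Limits to long or little-shared members and to 4 cultures were added after seeing the data.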

Additional observations from a re-analysis of the deposited data

How the results depend on the processing

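No paired analysis was made, because the labels do not say whether cultures of the genotypes belong together. A constant of 0.1 RPKM, 1 transcript per gene and limma-voom changed no direction of a named member and no count by more than 1.5 times. With transcripts of every annotation, 5193 of then 95358 transcripts had an unadjusted p under 0.05 and Atp5g1 had a log2 fold change of -0.14, since its most abundant row is then that of Gm10039. With median-of-ratios scaling, Sdhaf2 (0.0068) and Sdhc (0.0035) turned positive. Without a minimum, 22 of then 28890 transcripts passed the adjusted threshold of limma, 20 of them under the minimum, 1456 had an unadjusted p under 0.05, and so did 1 member, Atp5j.

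With 1 culture left out, no transcript passed the adjusted threshold of limma, and the smallest adjusted p was 0.376. The number of all transcripts with an unadjusted p under 0.05 ranged from 317 without WT replicate 11 to 1754 without WT replicate 10, and that of members from 0 to 6. The 6 were Atp5h, Atp5s, Atp5sl, Cox6b2, Sdhaf1 and Uqcrb, without Ucp1-KO replicate 13, and without WT replicate 10 there were 4 (Atp5g3, Atpif1, Cox7c and Sdhd). The median log2 fold change of the members ranged from 0.026 to 0.115, and that of complex V from -0.042 without Ucp1-KO replicate 15 to 0.088 without replicate 13. Named members near 0 turned sign. Ranges were -0.078 to 0.069 for Atp5a1, -0.071 to 0.021 for Atp5b, -0.0003 to 0.221 for Atp5g1, -0.0998 to 0.013 for Cox5a, -0.033 to 0.151 for Cox6b1, -0.058 to 0.176 for Cox6c, -0.094 to 0.039 for Cyc1, -0.044 to 0.028 for Sdhaf2, -0.057 to 0.151 for Sdhb and -0.031 to 0.019 for Sdhc. The cause was not tested.

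Of the members of at least 600 bases, 19 of 32 were higher in Ucp1-KO cells, and of those with under 20% of their stretches shared at up to 2 mismatches, 20 of 33, where fewer members are counted. Without both WT replicate 11 and Ucp1-KO replicate 15 the median of the members was 0.0101. A smaller value followed from the choice, since these were the lowest WT and highest Ucp1-KO culture in the members' own median deviation.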
